A study of Mus musculus with 16 samples.

Results

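The Hivep genes Hivep1, Hivep2 and Hivep3 code for large zinc finger proteins, and their RNA was followed in mouse pre-B cells over a 5 h course of BLNK activation. All 3 members of the family were chosen by name and by their measured exon reads and reads outside exons in these libraries, so those values are given as a description with no test. They make up 3 of the 38918 features in the tables. The cells were Blnk-/- KO pre-B cells, the precursors of B lymphocytes that carry the preBCR, and every group, the control included, also carried a BLNK-ERt2 fusion delivered by retrovirus. BLNK is the adaptor that links the preBCR to its downstream enzymes, and ERt2 is an oestrogen receptor domain that makes a fused protein depend on tamoxifen. Of the 4 groups, the control was listed with no time, and the others were listed as stimulated, with times of 0.5, 1.5 and 5 h. The labels call BLNK inducible by tamoxifen. The stated aim was to find genes regulated after preBCR signalling. No unstimulated group was matched in time to a stimulated one, and no group lacked the fusion. The parts of BLNK activation, the drug, handling and time in the results thus cannot be told apart and were not tested.

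Each condition had 1 library, sequenced in 4 lanes that share an index, so the 16 samples show technical spread only and no condition has a replicate. The age and sex of the mice, the number of mice or clones behind the cells, the promoter that drives the fusion and the treatment of the control cells are not stated in the labels. Libraries held 30746189 to 34533362 total exon reads, and lanes held 7631791 to 8709054. A count of 0 reads allows up to 3 counts, or 0.0869 to 0.0976 CPM (exon reads of a feature per 1000000 exon reads of its library). Blnk, which reads from the fusion can reach, was between 3516 and 3806 CPM, and Esr1 was between 94.7 and 108.6 CPM. All 13 pre-B cell markers were at 13.27 CPM or more in every library. Blnk is among the 13, and since the fusion can supply its reads it does not speak to the type of the cells. Summed markers were 18.2 to 24.0 CPM for T and NK cells, 39.6 to 72.9 CPM for myeloid cells, mostly Itgam, 11.7 to 13.2 CPM for erythroid cells and megakaryocytes, and 131 to 168 CPM for stromal and endothelial cells, mostly Pecam1. The part of such cells in the results was not tested. In such bulk RNA, fewer cells of a type and less RNA per cell cannot be told apart.

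Hivep proteins, also called Schnurri proteins after their fly relative, carry a pair of C2H2 zinc fingers toward the start and another past the middle. Each pair binds DNA related to the NF-kB site. Hivep1 was isolated as a protein that binds the kB elements of viral and interferon enhancers. Hivep2 is known to restrain NF-kB in T cells. Hivep3 is known to bind TRAF2 and the AP-1 subunit Jun, to lower Runx2 in bone and to bind kB and recombination signal sequences. The fly protein acts with Smad proteins in BMP signalling.

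The finger pairs are what defines the family, so the coding sequence of the first pair is printed for each gene, from the GENCODE vM21 transcripts on GRCm38. Capitals mark the codons of cysteines and histidines matched by a zinc finger pattern with 2 residues between the cysteines, 12 before the first histidine and 3 to 5 between the histidines. Where more than 1 histidine met the pattern, as in the second finger of each printed pair, the one farther on is marked, so the capitals do not fix which of them binds zinc.
Hivep1: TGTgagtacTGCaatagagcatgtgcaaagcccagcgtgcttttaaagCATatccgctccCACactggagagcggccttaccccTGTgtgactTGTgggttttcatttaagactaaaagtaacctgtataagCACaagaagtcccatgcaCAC
Hivep2: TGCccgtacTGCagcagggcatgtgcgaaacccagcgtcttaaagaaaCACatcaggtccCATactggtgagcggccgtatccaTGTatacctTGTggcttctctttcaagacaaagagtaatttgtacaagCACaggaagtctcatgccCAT
Hivep3: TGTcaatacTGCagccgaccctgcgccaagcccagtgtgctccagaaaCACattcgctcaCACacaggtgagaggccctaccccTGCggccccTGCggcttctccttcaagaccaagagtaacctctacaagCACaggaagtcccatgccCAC
Each run is 153 bases long and codes for residues 409 to 459 of Hivep1, 191 to 241 of Hivep2 and 187 to 237 of Hivep3. Over these 51 residues Hivep1 and Hivep2 were identical at 88.2%, Hivep1 and Hivep3 at 86.3% and Hivep2 and Hivep3 at 92.2%. The last pair was identical at 92.2, 90.2 and 96.1% in the same order. Over the whole proteins, of 2688, 2430 and 2348 residues, identity at aligned positions was 37.1, 40.0 and 41.1%. Identity was thus higher in the finger pairs than over the whole proteins. At the level of bases, the first pairs were identical at 74.5 to 75.2%, and the exon reads of Hivep1 and Hivep2 were 100% unique and those of Hivep3 at least 99.89% unique in every library.

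The stretch before the start site is printed for each gene because all 3 genes had higher exon levels at 1.5 h. These are the 250 bases before the RefSeq start on GRCm38.p6, on the plus strand, with capitals for matches to the NF-kB motif and to the EGR motif GCGNGGGCG.
Hivep1: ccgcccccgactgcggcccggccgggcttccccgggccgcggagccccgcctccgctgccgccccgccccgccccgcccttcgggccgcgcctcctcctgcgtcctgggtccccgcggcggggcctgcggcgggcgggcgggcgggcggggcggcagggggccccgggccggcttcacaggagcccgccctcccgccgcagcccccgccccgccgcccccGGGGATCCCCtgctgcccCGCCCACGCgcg
Hivep2: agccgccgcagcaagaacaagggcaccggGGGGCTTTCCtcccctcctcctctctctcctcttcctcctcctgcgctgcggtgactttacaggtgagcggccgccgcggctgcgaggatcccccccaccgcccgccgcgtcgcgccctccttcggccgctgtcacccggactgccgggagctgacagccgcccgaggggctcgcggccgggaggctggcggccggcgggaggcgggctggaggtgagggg
Hivep3: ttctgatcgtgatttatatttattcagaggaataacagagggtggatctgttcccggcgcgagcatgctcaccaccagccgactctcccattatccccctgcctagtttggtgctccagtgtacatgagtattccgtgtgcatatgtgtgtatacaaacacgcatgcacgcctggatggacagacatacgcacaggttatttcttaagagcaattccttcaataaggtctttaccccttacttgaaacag
These letters are the upstream part of 300-base windows that run to 50 bases past the start. The windows lie at chr13:42051771-42052070 for Hivep1, chr10:13966129-13966428 for Hivep2 and chr4:119814428-119814727 for Hivep3. GC content of the window was 87.0% in Hivep1, 75.3% in Hivep2 and 44.3% in Hivep3, against a median of 52.7% over 32851 windows. Hivep1 held an NF-kB match that begins 30 bases before the start and reads alike on both strands, an EGR match that begins 12 bases before it and another EGR match past it. The EGR matches are on the minus strand, and no match overlaps another motif. Hivep2 held 1 NF-kB match, which begins 221 bases before the RefSeq start. GENCODE starts Hivep2 earlier, at 13966075, so by that annotation the whole window with its match lies inside the gene. Hivep3 held no match to any of 9 motifs searched on both strands, and its RefSeq window lies inside the locus listed in the tables, which starts at 119733784. Of all windows, 8.46% held the NF-kB motif and 5.55% the EGR motif. The motifs without a match in the 3 windows were AP-1 (TGANTCA, in 7.81% of all windows), CRE (TGACG, in 20.8%), SRE (in 1.63%), E-box (CACGTG, in 7.15%), FoxO (TGTTTAC, in 3.65%), NFAT (TGGAAA, in 21.4%) and ETS (CCGGAAG, in 8.86%). A match is a description of letters and says nothing of binding.

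In exon reads, Hivep2 had the highest ratios and stayed above the control to 5 h, Hivep1 was higher at 1.5 h and below the control at 5 h, and Hivep3 was higher at both times. Against the control, Hivep2 was 3.02-fold higher at 1.5 h and 2.18-fold higher at 5 h. Hivep3 was 1.78-fold higher at 1.5 h and 1.73-fold higher at 5 h. Hivep1 was 1.71-fold higher at 1.5 h and 1.31-fold lower at 5 h. Levels are CPM of total exon reads, and a gene was called where the ratio of CPM with 1 CPM added was at least 2-fold and the higher library had at least 5 CPM.

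**Figure D1:**
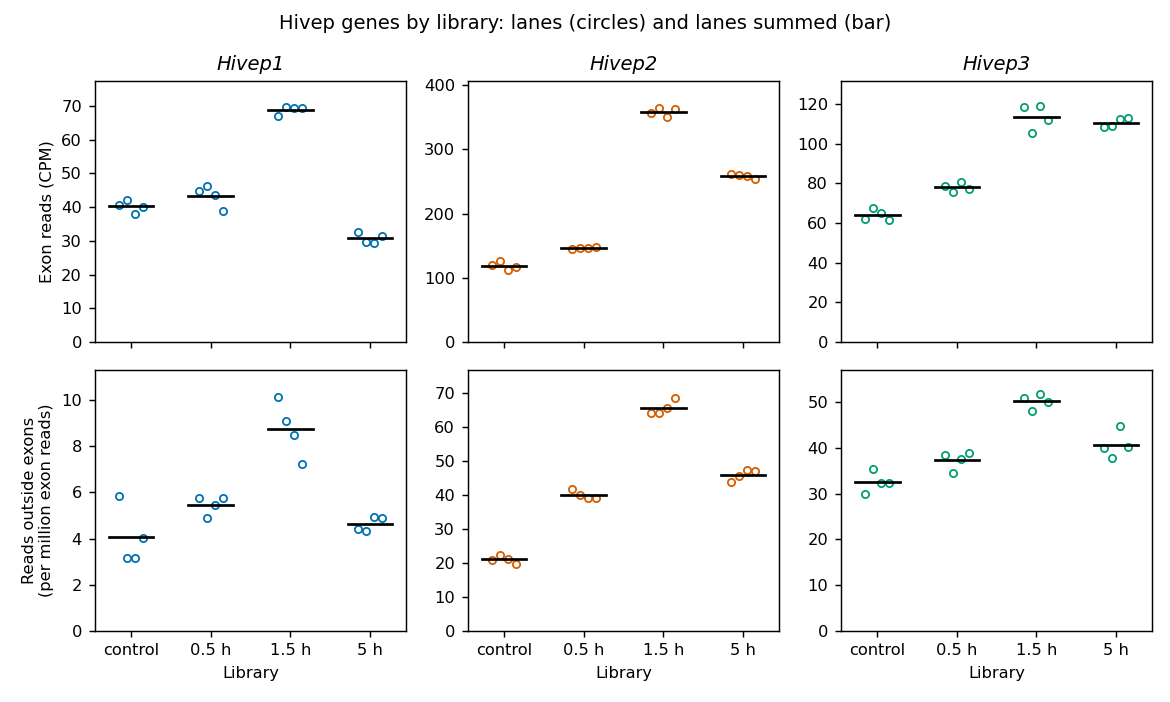
Level of each Hivep gene by library (horizontal axis), as exon reads in CPM (upper row) and reads outside exons per 1000000 exon reads (lower row). Circles are the 4 lanes of a library and bars the summed lanes: Hivep2 exon reads stood at 350 to 364 CPM in the lanes at 1.5 h against 112 to 126 CPM in the control.

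Hivep2 lies at chr10:13966379-14151376 on mm10, with 9 exons and an exon length of 9766 bases. In the control its 4 lanes held 120, 126, 112 and 117 CPM of exon reads, or 119 CPM (4097 reads) for the library. At 0.5 h the lanes held 145, 146, 147 and 148 CPM, or 146 CPM (4953 reads). All lanes at 0.5 h were above all control lanes, by a small step. At 1.5 h the lanes held 356, 364, 350 and 363 CPM, or 358 CPM (11694 reads). At 5 h they held 262, 261, 259 and 254 CPM, or 259 CPM (7960 reads). The lanes of the 4 libraries did not overlap, in the order control, 0.5, 5 and 1.5 h. At 0.5 h the ratio of Hivep2 to its control level was 1.23-fold, with a 95% interval of 1.18 to 1.29. The 95% interval was 2.92 to 3.13 for the 3.02-fold ratio at 1.5 h, and 2.10 to 2.27 for the 2.18-fold ratio at 5 h. Intervals are exact Clopper-Pearson intervals of the split of reads and cover counting error only, because each condition had 1 library. Without molecular identifiers copies of 1 molecule cannot be told from separate ones, so the intervals may be too narrow even for that. Between 0.5 and 1.5 h Hivep2 was 2.45-fold higher (2.37 to 2.53), and between 1.5 and 5 h it was 1.38-fold lower (1.35 to 1.42). A higher ratio was seen in 8 of 9512 features at 1.5 h, in 20 of 9520 at 5 h and in 4 of 9499 between 0.5 and 1.5 h.

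Hivep1 lies at chr13:42052021-42185026, with 9 exons and an exon length of 8753 bases. In the control its lanes held 40.65, 42.2, 38.0 and 40.0 CPM of exon reads, or 40.2 CPM (1388 reads) for the library. At 0.5 h the lanes held 44.9, 46.2, 43.5 and 38.9 CPM, or 43.4 CPM (1469 reads). The lanes of these libraries overlapped, and the ratio was 1.08-fold, with an interval of 1.002 to 1.16. At 1.5 h the lanes held 67.0, 69.6, 69.4 and 69.5 CPM, or 68.9 CPM (2248 reads). At 5 h they held 32.7, 29.6, 29.4 and 31.4 CPM, or 30.8 CPM (946 reads). Every lane at 1.5 h was above, and every lane at 5 h below, every lane of the other libraries. The ratio to the control was 1.71-fold at 1.5 h (1.602 to 1.83), and at 5 h the level was 1.31-fold lower (1.20 to 1.42). Between 1.5 and 5 h Hivep1 was 2.24-fold lower (2.07 to 2.42), and 25 of 9453 features had a lower ratio.

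Hivep3 is listed as a pair of features, of which the one that spans the locus, chr4:119733784-120138045, has 25 exons over 9 transcripts and an exon length of 17427 bases. The short one, chr4:119733796-119736768, had 0 reads in all libraries, and all values are of the long one. Its control lanes held 62.1, 67.3, 64.95 and 61.6 CPM of exon reads, or 64.0 CPM (2209 reads) for the library. At 0.5 h the lanes held 78.6, 75.8, 80.5 and 77.1 CPM, or 78.0 CPM (2642 reads). These lanes were all above those of the control, at a ratio of 1.22-fold (1.15 to 1.29). At 1.5 h the lanes held 118, 105, 119 and 112 CPM, or 113.5 CPM (3705 reads). At 5 h they held 108, 109, 112 and 113 CPM, or 110.6 CPM (3401 reads). Lanes at 5 h fell within the range of those at 1.5 h, and the ratio between them was 0.974 (0.930 to 1.02). Against the control Hivep3 was 1.78-fold higher at 1.5 h (1.68 to 1.87) and 1.73-fold higher at 5 h (1.64 to 1.83). The chi-square per degree of freedom between lanes was largest, among the members, for Hivep3 at 1.5 h, at 2.92, and for Hivep2 in the control, at 2.71.

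By the rule of size, 0 of the 3 genes were called at 0.5 h, beside 0.284% of 9516 features called higher and 0.021% called lower. At 1.5 h Hivep2 was called higher, beside 0.641% of 9512 features called higher and 0.21% called lower. At 5 h Hivep2 was again called higher, beside 0.336% of 9520 features called higher and 0.399% called lower. Between 0.5 and 1.5 h Hivep2 was called higher, beside 0.189% of features, and between 1.5 and 5 h Hivep1 was called lower, beside 0.444% of features. The log2 ratios of (CPM + 1) at 1.5 h were 0.76 for Hivep1, 1.59 for Hivep2 and 0.82 for Hivep3. Hivep1 and Hivep3 lay between 1.5-fold and 2-fold there and were not called. The median log2 ratio over all features tested was between -0.01 and 0.00 in these comparisons. The comparisons at 0.5, 1.5 and 5 h share the control library. Since these contrasts chose the genes, nothing is read from the counts.

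**Figure D2:**
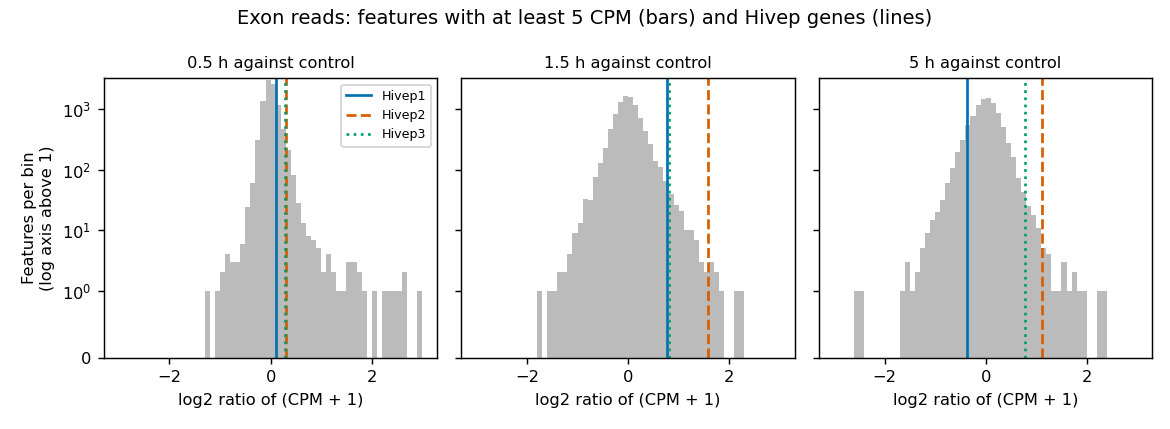
Number of features (vertical axis, logarithmic above 1) by log2 ratio of (CPM + 1) in exon reads against the control, for features that reached 5 CPM, with ratios beyond 3 drawn at the edge. Lines mark the Hivep genes, and Hivep2 stands at 1.59 at 1.5 h and at 1.12 at 5 h.

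Levels of different genes were compared per length, as CPM of exon reads divided by the exon length in kilobases (RPKM). In the control Hivep2 had 12.2 RPKM, Hivep1 4.59 RPKM and Hivep3 3.67 RPKM. At 0.5 h the levels were 14.98, 4.96 and 4.48 RPKM in the same order. Hivep2 thus had the highest level per length in both. At 1.5 h Hivep2 had 36.7 RPKM, Hivep1 7.87 RPKM and Hivep3 6.52 RPKM. At 5 h Hivep2 had 26.5 RPKM, Hivep3 6.35 RPKM and Hivep1 3.52 RPKM, so that Hivep3 was above Hivep1 there. The order of Hivep1 and Hivep3 depends on the length used, since the exon length of Hivep3 joins the exons of 9 transcripts. By the 11838 bases of Hivep3-202, the annotated transcript used for its protein, Hivep3 had 5.404 RPKM in the control, 6.59 RPKM at 0.5 h, 9.59 RPKM at 1.5 h and 9.34 RPKM at 5 h. It was then above Hivep1 in every library, and Hivep2 was above both by either length.

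The ratio of a pair of genes within a library needs no scaling between libraries. Hivep2 had 2.95 exon reads for each of Hivep1 in the control (2.78 to 3.14), 3.37 at 0.5 h (3.18 to 3.58), 5.20 at 1.5 h (4.97 to 5.45) and 8.41 at 5 h (7.87 to 9.01). This ratio was higher in each later library, with intervals that do not overlap. Hivep2 had 1.86 exon reads for each of Hivep3 in the control (1.76 to 1.95), 1.88 at 0.5 h (1.79 to 1.97), 3.16 at 1.5 h (3.04 to 3.28) and 2.34 at 5 h (2.25 to 2.44). The balance of Hivep2 and Hivep3 was thus alike in the control and at 0.5 h within counting error. Hivep3 had 1.59 exon reads for each of Hivep1 in the control (1.49 to 1.70), 1.799 at 0.5 h (1.69 to 1.92), 1.65 at 1.5 h (1.56 to 1.74) and 3.595 at 5 h (3.34 to 3.87). Of the family's exon reads, Hivep1 held 18.0% in the control and 7.69% at 5 h.

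**Figure D3:**
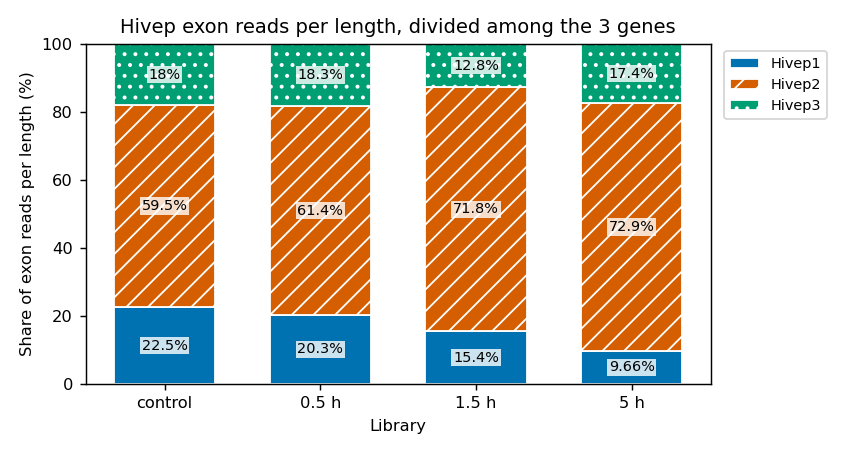
Exon reads per length of the 3 Hivep genes, as percent of their sum (vertical axis) in each library (horizontal axis). Hivep2 takes 59.5% in the control and 72.9% at 5 h, and Hivep1 22.5% and 9.66%. Hivep3 is divided by its exon length of 17427 bases, which joins 9 transcripts, and all shares depend on that length.

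Reads outside exons, which are gene reads less exon reads, come from RNA that keeps introns or from other RNA inside the locus, and they are given per 1000000 total exon reads. In these reads Hivep2 was higher already at 0.5 h, by more than in its exon reads. Its control lanes held 20.8, 22.4, 21.2 and 19.8 CPM, or 21.0 CPM (726 reads) for the library. At 0.5 h they held 41.7, 39.8, 39.1 and 39.2 CPM, or 39.95 CPM (1353 reads). All of these lanes lay above all control lanes. At 1.5 h the lanes held 64.0, 64.2, 65.7 and 68.6 CPM, or 65.6 CPM (2141 reads). At 5 h they held 43.8, 45.5, 47.2 and 47.0 CPM, or 45.9 CPM (1410 reads). Outside exons Hivep2 was 1.90-fold above its control level at 0.5 h (1.74 to 2.08). Its later ratios were 3.12-fold, with an interval of 2.87 to 3.40, at 1.5 h and 2.18-fold, with an interval of 1.99 to 2.39, at 5 h. At 1.5 and 5 h these intervals overlapped those of the exon reads, and at 0.5 h the interval lay above that of the exon reads. With unique reads alone the overlap was lost. At 1.5 h Hivep2 was then 4.01-fold above the control outside exons (3.58 to 4.50), beside 3.004-fold in unique exon reads (2.90 to 3.11). At 5 h the values were 2.60-fold (2.30 to 2.94) and 2.17-fold (2.09 to 2.25), and at 0.5 h 1.61-fold (1.42 to 1.84) and 1.23-fold (1.18 to 1.28).

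Much of the step of Hivep2 at 0.5 h was in reads not placed uniquely. Unique reads outside its exons were 11.2, 18.1, 45.1 and 29.2 CPM in the control and at 0.5, 1.5 and 5 h. Reads that were not unique were 9.85, 21.9, 20.5 and 16.6 CPM in the same order. Unique reads were thus highest at 1.5 h, and the others were higher at 0.5 h than in the control and not higher at 1.5 h than at 0.5 h. The part of repeated sequence in this was not tested. Listed inside Hivep2 is Gm26835, which had 1 to 6 gene reads per library, and GENCODE places the antisense gene Gm28289 across its end. The strand of counting is not stated, so reads from an antisense gene cannot be told apart.

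Hivep1 had few reads outside exons, and Hivep3 had many. The control lanes of Hivep1 held 5.86, 3.15, 3.14 and 4.04 CPM, and its libraries held 4.05, 5.46, 8.73 and 4.65 CPM in the control and at 0.5, 1.5 and 5 h. At 0.5 h the lanes held 5.74, 4.87, 5.45 and 5.78 CPM and at 5 h 4.42, 4.32, 4.96 and 4.90 CPM, both within the range of the control lanes. At 1.5 h they held 10.1, 9.12, 8.49 and 7.22 CPM, all above it. The ratio of Hivep1 at 1.5 h was 2.15-fold (1.75 to 2.66), and with 1 CPM added its log2 ratio was 0.95, under the call, but 1.06 without lane 1 and 1.02 without lane 4. At 5 h it was under 5 CPM in both libraries, at a ratio of 1.15-fold (0.902 to 1.46). Hivep3 held 32.5, 37.4, 50.2 and 40.7 CPM in the control and at 0.5, 1.5 and 5 h. Its lanes spanned 29.9 to 35.5, 34.6 to 38.8, 48.0 to 51.8 and 37.9 to 44.7 CPM in the same order, so those of the control and 0.5 h overlapped. The ratios to the control were 1.15-fold (1.06 to 1.25), 1.54-fold (1.43 to 1.67) and 1.25-fold (1.15 to 1.36). Unique reads outside the exons of Hivep3 were 10.4, 13.1, 22.7 and 10.9 CPM, so that with unique reads alone the log2 ratio at 1.5 h was 1.05, past 2-fold. Other reads of Hivep3 were 22.1, 24.2, 27.5 and 29.8 CPM. GENCODE also lists AL607142.1 inside the Hivep3 locus.

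Outside exons, 0 of the 3 genes were called at 0.5 h, beside 0.347% of features called higher. At 1.5 h Hivep2 was called higher, beside 2.11% of features, and at 5 h Hivep2 again, beside 0.482% of features. The call at 5 h was lost when values were scaled by all reads outside exons, at a log2 ratio of 0.99, and with a pseudocount of 5 CPM, at 0.97. The median log2 ratio of all features outside exons was -0.00 at 0.5 h, 0.08 at 1.5 h and 0.17 at 5 h, so features as a whole were higher there at 5 h, and the share of all gene reads that lay outside exons was 15.9, 15.8, 16.4 and 17.2% in the 4 libraries. These contrasts too were used to choose the genes.

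**Figure D4:**
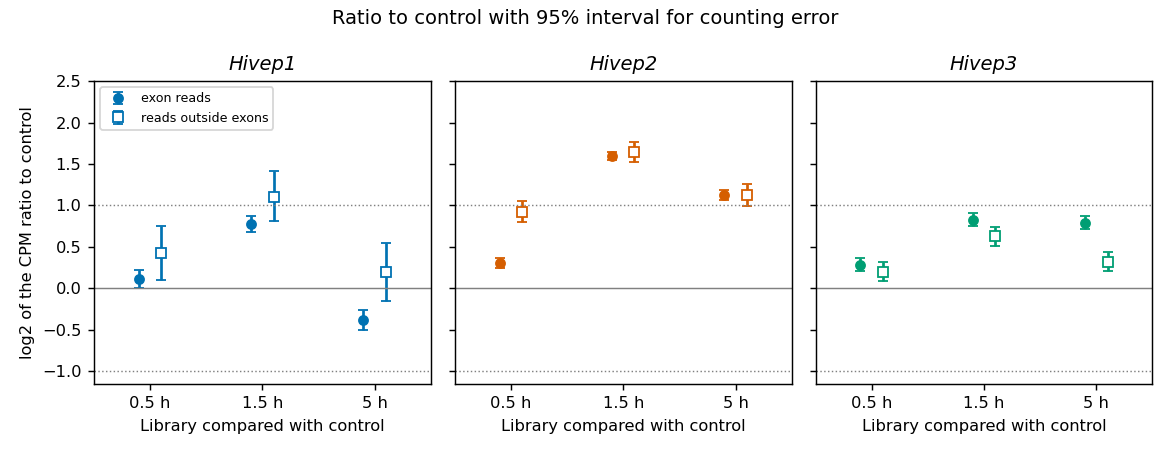
Log2 of the CPM ratio to the control (vertical axis, nothing added) at 0.5, 1.5 and 5 h for exon reads (filled circles) and reads outside exons (open squares), with 95% counting intervals as error bars and dotted lines at 2-fold. The squares and circles of Hivep2 are apart at 0.5 h and overlap at 1.5 and 5 h, those of Hivep3 are apart at 1.5 and 5 h, and those of Hivep1 are apart at 5 h.

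**Figure D5:**
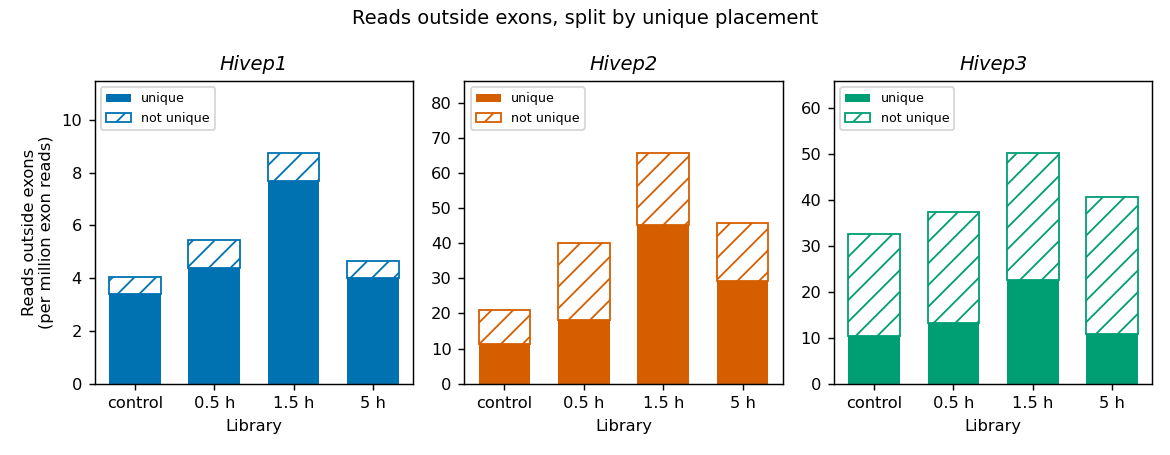
Reads outside exons per 1000000 exon reads (vertical axis) by library (horizontal axis), split into unique reads (filled) and reads that are not unique (hatched). In Hivep2 the hatched part is 9.85 CPM in the control and 21.9 CPM at 0.5 h, and in Hivep3 it is larger than the filled part in every library.

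As a share of its gene reads, Hivep2 had 15.05% outside exons in the control (14.05 to 16.1), 21.5% at 0.5 h (20.45 to 22.5), 15.5% at 1.5 h (14.9 to 16.1) and 15.05% at 5 h (14.3 to 15.8). In total reads the 0.5 h library was above the others for this gene. In unique reads the share was 8.61% in the control (7.81 to 9.47), 11.0% at 0.5 h (10.2 to 11.9), 11.2% at 1.5 h (10.65 to 11.7) and 10.15% at 5 h (9.53 to 10.8), so that the control was below the others and 0.5 h was not above 1.5 h. Hivep1 had 9.16% (7.76 to 10.7), 11.2% (9.71 to 12.8), 11.25% (10.05 to 12.55) and 13.1% (11.2 to 15.3) in the order control, 0.5, 1.5 and 5 h. Hivep3 had 33.7% (32.1 to 35.3), 32.4% (30.9 to 33.9), 30.7% (29.4 to 31.9) and 26.9% (25.6 to 28.2). The share of Hivep1 was higher at 5 h than in the control and that of Hivep3 was lower, while the median over features was 12.4% in the control and 13.7% at 5 h. In unique reads the share of Hivep1 was 7.84% in the control (6.53 to 9.31) and 11.5% at 5 h (9.65 to 13.6). That of Hivep3 was 14.0% (12.7 to 15.4) and 8.97% (8.07 to 9.93), and at 1.5 h it was 16.7% (15.6 to 17.8), above the control and not below it as in total reads. Reads across a junction of exons, which come from spliced RNA, numbered 158, 193, 506 and 347 for Hivep2 in the 4 libraries. They numbered 78, 67, 138 and 50 for Hivep1 and 59, 77, 131 and 106 for Hivep3. The highest count of each gene was at 1.5 h, as in exon reads. Reads across an exon and an intron were at most 19 in any library for any of the 3 genes.

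The genes on either side were not called against the control at any time, beside at most 0.641% of features called in either direction. With so low a share, nothing is read from this. AA415398, at 1.50 to 1.97 CPM, was under 5 CPM throughout and could not be called. Gfod1 was under 5 CPM in both the control and the 5 h library, so it could not be called at 5 h. The nearest measured features of Hivep2 were Pex3 and Adat2 on one side and Gm10335 and Vta1 on the other, 372 kb away or more, with log2 ratios to the control between -0.32 and 0.21. Around Hivep1, Nedd9, Tmem170b, Tbc1d7 and Gfod1 lay 411 kb away or more and had log2 ratios between -0.42 and 0.42. Around Hivep3, AA415398, Foxj3, Scmh1 and Ctps lay 105 kb away or more and had log2 ratios between -0.36 and 0.36.

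The genes whose course was most like that of each member were found by the distance over the 3 log2 ratios to the control, which share that library, among 9051 features with at least 5 CPM in a library, with predicted genes left out. For Hivep1 they were Hk2, a hexokinase, at a distance of 0.09, Relb, an NF-kB subunit, at 0.11, and then Cyp51, Ehbp1l1 and Tnfrsf21. Hk2 had log2 ratios of 0.16, 0.72 and -0.32 at 0.5, 1.5 and 5 h, beside 0.11, 0.76 and -0.38 for Hivep1. For Hivep3 they were Ahnak, at 0.105, Grb7, at 0.106, Otud1, Nolc1 and Mrps34. For Hivep2 the nearest, Srfbp1, was at 0.39, followed by Trmt61a, Rilpl2, Sh2d2a and Irs1. Srfbp1 had log2 ratios of 0.11, 1.49 and 0.80. By this measure 1 feature lay within 0.1 of Hivep1, and 0 lay within 0.1 of Hivep2 or of Hivep3. The same ratios chose the genes, and few features reached those of Hivep2, so nothing is read from its larger distance. With 5 CPM added in place of 1 CPM, 4, 3 and 1 of the 5 genes were named again for Hivep1, Hivep2 and Hivep3. Relb was the 1 gene no longer named for Hivep1.

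Genes of the pathways that Hivep proteins belong to were described from lists written from general knowledge with earlier results of these data known. For that reason nothing is read from the counts called in these lists. Of 20 NF-kB genes, 18 were measured with at least 1 CPM, and 1 of them was called higher at 0.5 h, beside 0.245% of all 11010 features so measured. At the later times 0 were called higher, and 0 were called lower at any time. Of all features so measured, 0.555% were called higher and 0.182% lower at 1.5 h, and 0.29% higher and 0.345% lower at 5 h, with 0.0182% lower at 0.5 h. Their median log2 ratio was 0.07 at 0.5 h, 0.11 at 1.5 h and -0.06 at 5 h, beside medians over all features so measured that were between -0.01 and 0.00. The called gene was Nfkbid, a nuclear member of the IkB family, with 19.55 CPM in the control and 64.3 CPM at 0.5 h, a ratio of 3.29-fold (3.02 to 3.59). Nfkb2, which codes for the p100 precursor, had 52.1 CPM in the control and 95.1 CPM at 1.5 h (1.82-fold, 1.72 to 1.93) and was not called. Relb, the usual partner of the Nfkb2 product, had 11.96 and 19.8 CPM in the same libraries (1.66-fold, 1.46 to 1.88). Nfkbiz, another nuclear IkB protein, had 35.7 CPM in the control and 56.6 CPM at 0.5 h (1.58-fold, 1.48 to 1.70). By 5 h Nfkbid was 1.40-fold lower than in the control (1.24 to 1.58) and Relb 1.26-fold lower (1.085 to 1.47). Nfkb2 was then 1.14-fold higher (1.06 to 1.21), and Nfkbiz had a ratio of 1.001 (0.922 to 1.087). Of the 18 measured genes, 11 were below the control and 7 above it at 5 h, beside a median of -0.005 over all features so measured. At 0.5 h and at 1.5 h 13 were above the control and 5 below it.

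Of 24 genes of BMP and TGF-beta signalling, 20 were measured and 0 were called in any of the 3 comparisons. Of all features so measured, at most 0.555% were called in either direction, so nothing is read from this. Median log2 ratios of the list were 0.04, 0.08 and -0.01, beside -0.003, -0.014 and -0.005 over all features so measured. Smad7, an inhibitor of the receptors, had 33.7 CPM in the control and 48.6 CPM at 5 h (1.44-fold, 1.34 to 1.56). Tgif1, a corepressor, had 40.9 CPM in the control and 61.2 CPM at 1.5 h (1.50-fold, 1.40 to 1.603). Id2, a target of BMP signals, had 9.18 and 5.85 CPM in the same libraries (1.57-fold lower, 1.31 to 1.89). Bmpr2, a receptor, had 1.19 CPM in the control and 2.37 CPM at 5 h (2-fold, 1.346 to 3.008). It was under 5 CPM in every library and so could not be called. Of 21 genes that Hivep proteins are known to bind or to regulate in other cells, 9 were measured, and 1 was called higher at 0.5 h, beside the same 0.245% of features, Jun, with 49.8 CPM in the control and 254 CPM at 0.5 h (5.09-fold, 4.83 to 5.36). Its exon reads were 76.5% unique. The other 8 were not called in any of these comparisons, and beside so low a share of features nothing is read from this. Among them, the kinase Mapk3 had 86.2 CPM in the control and 49.1 CPM at 5 h. Rps6ka3, a kinase downstream of it, had 112 and 157 CPM in the same libraries. The class I gene H2-K1 had 422 and 319 CPM there.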

How the data were processed

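RNA of Blnk-/- pre-B cells with BLNK-ERt2 was selected for poly(A), per the labels' protocols, and libraries were made with either of 2 kits and sequenced on a HiSeq instrument. The kit of each library is not stated. CASAVA 1.8.2 and mm10 are named in the submitters' processing notes, and how reads were aligned and counted is not given in the sources used here. Values as deposited are counts of total and unique exon and gene reads per feature and lane, not normalized, per the file headers. Positions and lengths are as deposited. The 3 tables list the same control counts, and 0 columns were left unmatched.

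Lanes with the same index were summed, and with 1 library for each condition there was no test. CPM used total exon reads, and calls and intervals are described with the results. Lanes differed by a chi-square per degree of freedom of 1.24 to 1.32 in total and 0.992 to 1.01 in unique exon reads. Unique reads were 84.0 to 84.6% of exon reads. Named genes were the members, Blnk and Esr1, the 5 features most like each member, up to 4 measured genes of each list with the largest ratios, and the nearest 2 features on each side. The members and lists were chosen with earlier results of these data known. Alternatives were TMM and DESeq2 factors, other pseudocounts, floors and folds, unique reads, total gene reads, scaling by reads outside exons, each lane left out and lane as a block. Shares outside exons in unique reads and the length of 1 transcript were added after the data were seen. Scripts were tested on simulated data. The tools were edgeR 4.0.16 and DESeq2 1.42.0 in R 4.3.3, and scipy 1.17.1, matplotlib 3.10.9, numpy 2.4.6 and pandas 2.3.3 in Python 3.11.15.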

Additional observations from a re-analysis of the deposited data

Results flagged for a closer look

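In exon reads of Hivep1 at 1.5 h, lane 1 held 67.0 CPM, while the other lanes held 69.4 to 69.6 CPM, so that lane 1 was far from the rest relative to their range (a gap of 0.892 of the whole range). All 4 lanes lay above every lane of the other libraries. It was the 1 such case among 24 sets of lanes looked at, and chance gives about 1 in 20 sets.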

How the results depend on the processing

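Of the 15 alternatives for each measure, 4 alter only the call. Under the other 11, 0 of 330 log2 ratios of the members changed sign, and 16 left the counting interval of the main value, 9 of them with unique reads. In exon reads the number of members called was the same under TMM and DESeq2 factors, other pseudocounts and floors, unique reads, total gene reads and each lane left out (1 at 1.5 h, at 5 h, at 1.5 against 0.5 h and at 5 against 1.5 h, and 0 at 0.5 h). With a ratio of 1.5-fold it was 3 at 1.5 h, 2 at 5 h and 2 at 1.5 against 0.5 h, and with 4-fold it was 0 in all comparisons. Outside exons it was 1 at 1.5 h and at 5 h and 0 in the other comparisons. At 1.5 h it was 2 with a pseudocount of 0.1 CPM, with unique reads and when scaled by reads outside exons, and between 1 and 2 with each lane left out. At 5 h it was 0 with a pseudocount of 5 CPM and when scaled by reads outside exons. With 1.5-fold it was 1, 3, 1 and 2 at 0.5 h, at 1.5 h, at 5 h and at 1.5 against 0.5 h and 1 at 5 against 1.5 h, and with 4-fold it was 0. With unique reads it was 1 at 1.5 against 0.5 h and 1 at 5 against 1.5 h. The cause was not tested, except that a lower or higher fold calls more or fewer genes by its construction. Shares over all features were taken at 2-fold only, so nothing is read from the counts of members at other folds. With lane as a replicate block, the log2 ratio of Hivep2 in exon reads was 1.59 at 1.5 h and 1.12 at 5 h, and no count of members called changed. Lanes share only an index, so the block pairs no conditions. The depth limits Hivep1 outside exons most, with 140 to 285 reads per library.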

Other observations

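Other zinc finger genes and genes of V(D)J recombination were looked at beside the Hivep genes. These lists were written with earlier results of these data known, so nothing is read from the counts called. Of 36 C2H2 zinc finger genes of lymphoid cells, 29 were measured at 0.5 h, 28 at 1.5 h and 27 at 5 h. Their median log2 ratios were 0.18, 0.18 and 0.01, beside -0.003, -0.014 and -0.005 over all features so measured. At 0.5 h 3 were called higher, beside 0.245% of all features so measured, the immediate early genes Egr1, Egr2 and Egr3. Egr1 had 1.77 CPM in the control, 153 CPM at 0.5 h, 12.3 CPM at 1.5 h and 3.61 CPM at 5 h. Egr3 had 1.33, 6.67, 7.45 and 2.67 CPM in the same order. At 1.5 h 2 were called higher, Egr1 and Egr3, beside 0.555% of features. At 5 h Ikzf3, which codes for Aiolos, was called higher, at a log2 ratio of 1.005, and Gfi1b and Klf10 lower, at -1.08 and -1.03, beside 0.29% of features called higher and 0.345% lower; Ikzf3 and Klf10 were named after their values were seen.

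Of 15 recombination genes, all 15 were measured, with median log2 ratios of -0.04 at 0.5 h, -0.19 at 1.5 h and -0.24 at 5 h. Medians over all features so measured were -0.003, -0.014 and -0.005 in the same order. Dclre1c, which codes for the Artemis nuclease, was called higher at 1.5 h, beside 0.555% of features. It had 35.6 CPM in the control and 76.4 CPM at 1.5 h (2.15-fold, 2.003 to 2.30), and its exon reads were 76.7% unique. Dntt, which adds bases to V(D)J junctions, was called lower at 5 h, beside 0.345% of features. It had 138 CPM in the control and 48.0 CPM at 5 h (2.87-fold lower, 2.71 to 3.04). Rag1, a subunit of the recombinase, was called lower at 1.5 h, beside 0.182% of features. It had 6.63 CPM in the control and 1.59 CPM at 1.5 h, but its exon reads were 7.78% unique.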
